A study of Mus musculus with 8 samples.

Results

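The genes described here are 60 genes of mitosis and chromosome segregation, taken as a list of names chosen with earlier results of these data known. They cover the kinases and cyclins of mitotic entry, the spindle checkpoint, the chromosomal passenger complex, kinesin motors, the kinetochore, the anaphase machinery, condensin and the proteins of the spindle and of cytokinesis. A gene was measured where a row of the expression table was annotated with that gene alone, and 54 of the 60 were. Ccnb1, Kif14, Cenpf, Cenpi and Ncapg were named by no row, Foxm1 only together with another gene, and these 6 are given no value. Plk1 alone had more than 1 row, and its brighter row stands for it. Gene expression was profiled in 8 mammary tumors of nulliparous female mice, each on its own Affymetrix Mouse Exon 1.0 ST array: 4 came from MMTV-Wnt1 mice and 4 from double-transgenic MMTV-Wnt/ILK mice. Both lines had been backcrossed to the FVB strain, and all 8 tumors carried the mouse Wnt1 transgene under the mouse mammary tumor virus promoter, which drives expression mainly in mammary epithelium. The MMTV-Wnt/ILK tumors carried in addition a human transgene for integrin-linked kinase (ILK), under the same kind of promoter. RNA came from whole snap-frozen tumors described as independent, and the ages of these mice are not given in the sources used here.

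Cells build up the transcripts of many of these genes through G2 phase, and break many of the proteins down as mitosis ends. The RNA of such genes in a tissue depends in part on how many cells are dividing. Cyclin-dependent kinase 1 with its cyclins starts mitosis, Polo-like and Aurora kinases build the spindle, the checkpoint holds the sister chromatids together until every kinetochore is attached, and Cdc20 then turns on the ubiquitin ligase that releases them. Mki67, which encodes the Ki67 antigen used to score dividing cells in breast tumors, belongs to the same program. In bulk tumor RNA, fewer dividing cells and less RNA per dividing cell cannot be told apart.

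Many of these genes share a promoter layout. The cell cycle genes homology region, or CHR, is a 6-letter element (TTTGAA) bound by the DREAM and MuvB complexes, and CCAAT is the 5-letter element bound by the factor NF-Y. Both were searched on both strands, in windows from 250 bases before the transcription start to 50 bases from it on (RefSeq, GRCm38.p6); neither motif contains the other. Of the 60 genes, 50 had an entry, with 55 promoters in all. The CHR was present in 36 of the 55 promoters (65.5%), against 17.9% of the 32851 promoters in the table. CCAAT was present in 41 (74.5%), against 37.4%. Both stood together in 31 (56.4%), against 6.95%. A CHR within 50 bases of the start was found in 31 (56.4%), against 5.05%. Among 63 promoters of other mitosis genes, the CHR was present in 44.4%, CCAAT in 65.1%, both in 31.7% and a CHR near the start in 36.5%. Among 31 promoters of DNA replication genes, which are transcribed earlier in the cycle, CCAAT was present in 61.3% but the CHR in only 12.9%. A match describes letters and shows no binding. The 6 promoters below belong to genes whose values are given in full and that hold both motifs. They were taken in the order of the smallest unadjusted p in the group comparison (limma). Some genes given in full, at a smaller p than Aurka, were passed over. Nusap1, Mad2l1 and Ncaph held neither motif, Ndc80 and Kif2c held a CHR but no CCAAT, and Pbk and Aurkb had no promoter entry. Both motifs are in capitals, read on the strand of the gene. TTCAAA and ATTGG are the same motifs on the opposite strand.
Aurka, chr2:172370521-172370820, minus strand: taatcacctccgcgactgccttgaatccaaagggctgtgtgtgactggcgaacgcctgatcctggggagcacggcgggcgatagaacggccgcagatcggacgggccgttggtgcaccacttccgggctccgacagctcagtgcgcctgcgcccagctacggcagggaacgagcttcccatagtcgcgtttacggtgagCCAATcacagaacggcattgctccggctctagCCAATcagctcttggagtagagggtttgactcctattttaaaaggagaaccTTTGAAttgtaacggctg
Ect2, chr3:27153829-27154128, minus strand: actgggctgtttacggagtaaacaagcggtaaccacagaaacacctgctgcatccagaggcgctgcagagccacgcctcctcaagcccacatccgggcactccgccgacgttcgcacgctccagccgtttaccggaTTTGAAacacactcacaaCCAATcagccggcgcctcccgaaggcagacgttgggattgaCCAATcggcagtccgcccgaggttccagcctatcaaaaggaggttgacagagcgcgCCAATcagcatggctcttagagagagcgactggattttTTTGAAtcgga
Top2a, chr11:99024140-99024439, minus strand: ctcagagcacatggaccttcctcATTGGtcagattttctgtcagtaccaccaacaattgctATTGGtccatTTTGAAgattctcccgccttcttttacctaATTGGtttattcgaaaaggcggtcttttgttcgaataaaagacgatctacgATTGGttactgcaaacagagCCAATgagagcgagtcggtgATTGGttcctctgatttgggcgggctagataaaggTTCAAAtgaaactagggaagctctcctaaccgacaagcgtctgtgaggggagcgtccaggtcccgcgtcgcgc
Bub1b, chr2:118597961-118598260, plus strand: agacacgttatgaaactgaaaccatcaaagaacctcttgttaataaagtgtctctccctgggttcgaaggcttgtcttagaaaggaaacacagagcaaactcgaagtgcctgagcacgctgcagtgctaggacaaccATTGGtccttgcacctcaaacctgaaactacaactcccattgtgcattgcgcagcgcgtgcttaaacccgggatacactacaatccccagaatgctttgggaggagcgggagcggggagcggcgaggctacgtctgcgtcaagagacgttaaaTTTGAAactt
Cdc20, chr4:118437294-118437593, minus strand: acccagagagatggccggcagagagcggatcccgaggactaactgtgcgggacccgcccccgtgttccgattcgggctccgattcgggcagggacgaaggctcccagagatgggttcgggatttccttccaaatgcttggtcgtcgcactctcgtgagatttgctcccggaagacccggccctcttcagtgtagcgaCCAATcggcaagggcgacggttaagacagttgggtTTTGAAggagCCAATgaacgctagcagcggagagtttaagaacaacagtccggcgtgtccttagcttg
Ttk, chr9:83834439-83834738, plus strand: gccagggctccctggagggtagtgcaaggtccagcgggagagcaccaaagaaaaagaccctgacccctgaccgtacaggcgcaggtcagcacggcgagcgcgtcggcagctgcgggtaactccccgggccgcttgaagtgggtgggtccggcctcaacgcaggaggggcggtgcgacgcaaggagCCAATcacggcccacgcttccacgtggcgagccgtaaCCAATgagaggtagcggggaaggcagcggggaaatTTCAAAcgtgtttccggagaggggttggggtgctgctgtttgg
In Aurka the CHR lay at bases 33 to 38 from the start, with base 1 as the start, behind a pair of CCAAT boxes. Cdc20 had it just before the start, at bases -18 to -13, and Ttk just after, at bases 8 to 13. Top2a held 6 CCAAT boxes, and Ect2, shown by 1 of its 2 entries, held 3 with a CHR at bases 40 to 45 and another upstream. Bub1b had a CHR at bases 41 to 46 and only 1 CCAAT box.

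**Figure D1:**
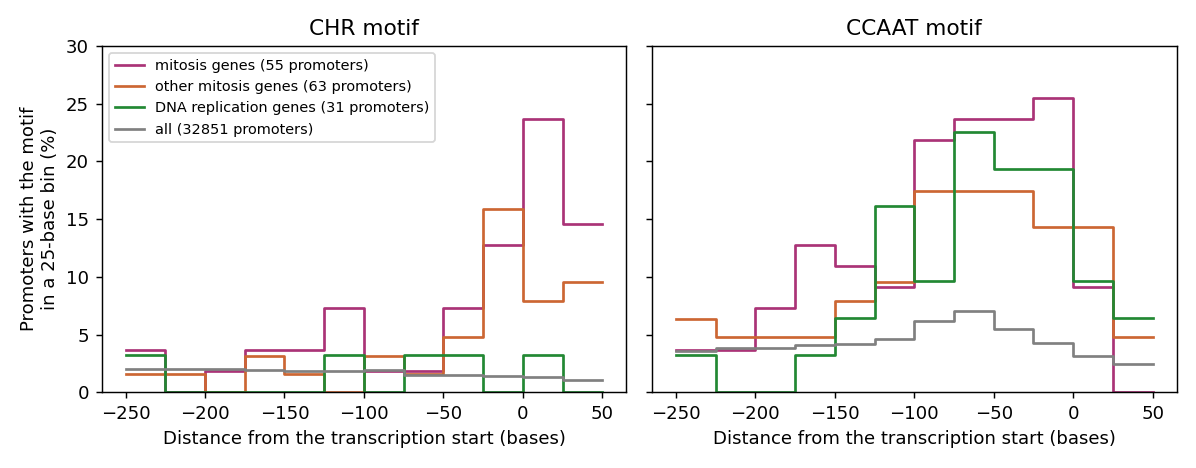
Share of promoters (%) that hold the CHR (left) or CCAAT (right) in each 25-base bin, by distance in bases from the transcription start, for 55 promoters of the mitosis genes, 63 of other mitosis genes, 31 of DNA replication genes and all 32851. The CHR reached 23.6% of the mitosis promoters in the 25 bases after the start, where it was found in 1.28% of all promoters, while CCAAT lay mostly in the 100 bases upstream.

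The deposited values are log2 values, and they are compared between tumors for one gene at a time and never between genes. Array medians lay between 6.89 and 7.23, and pairs of arrays correlated at 0.920 to 0.974. Of the 54 mitosis genes, 44 had a mean above the median of every array and 0 a mean below the lower quartile of any. For 0 genes did a single value lie below the lower quartile of its array, but some came close. Plk4 was 5.51 in MMTV-Wnt/ILK tumor 1 (lower quartile 5.51) and Cenpk 5.62 in MMTV-Wnt1 tumor 1 (lower quartile 5.50). Of the 5 measured luminal epithelial markers, Epcam, Krt18, Cdh1 and Cldn3 were bright in all 8 tumors (12.33 to 12.89, 11.15 to 12.67, 10.73 to 11.35 and 10.05 to 11.31). Krt19 was 9.30 in MMTV-Wnt1 tumor 2 and 10.73 to 11.96 in the others. Several tumors held RNA of other tissues. All 7 measured fat markers were highest in MMTV-Wnt1 tumor 2, whose mean over them stood 2.46 above the average on the log2 scale, against -0.60 to -0.03 in the other MMTV-Wnt1 tumors and -0.53 to -0.19 in the MMTV-Wnt/ILK tumors. All 4 measured skeletal muscle markers were highest in MMTV-Wnt/ILK tumor 3 (2.19, others of its group -0.75 to -0.56), and MMTV-Wnt1 tumor 1 followed (1.34, others of its group -0.67 to -0.46). All 8 fibroblast markers were lowest in MMTV-Wnt1 tumor 3 (-2.51).

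The level of the mitotic program was first followed tumor by tumor, with a score that averages, over the 54 genes, the log2 value minus the gene's mean over the 8 tumors. The MMTV-Wnt1 tumors 1 to 4 scored -0.10, 0.47, 0.18 and -0.05 (mean 0.13 ± 0.26, SD, n = 4). The MMTV-Wnt/ILK tumors 1 to 4 scored -0.17, -0.05, -0.50 and 0.23 (mean -0.13 ± 0.30, SD, n = 4). The groups overlapped: the highest MMTV-Wnt/ILK tumor, tumor 4, lay above 3 of the 4 MMTV-Wnt1 tumors. The difference between the groups was -0.25, or 1.19-fold lower in MMTV-Wnt/ILK, which is smaller than the SD within either group.

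The gap between some single tumors of the same genotype was larger than the difference between the group means. MMTV-Wnt/ILK tumor 4 stood above MMTV-Wnt/ILK tumor 3 for 54 of 54 genes, by a median of 0.76 on the log2 scale (1.66-fold in the score). MMTV-Wnt1 tumor 2 stood above MMTV-Wnt/ILK tumor 3, also for 54 of 54 genes, by a median of 0.96 (1.97-fold in the score). Of the 54 genes, 36 were highest in MMTV-Wnt1 tumor 2 and 13 in MMTV-Wnt/ILK tumor 4, while 37 were lowest in MMTV-Wnt/ILK tumor 3. Counts of this kind were not made over all rows, so they do not show a trait particular to these genes. The tumor with the highest score, MMTV-Wnt1 tumor 2, was also the highest for all 7 fat markers. The same tumor was highest for all 7 endothelial markers (mean 0.85) and 4 of 6 myeloid markers (mean 0.57). Its luminal epithelial mean was the lowest (-0.51), but it was the lowest tumor for only 2 of the 5 luminal markers. Krt19 stood furthest from the other tumors, at 9.30 against 10.73 to 11.96. The tumor with the lowest score was the highest for all 4 muscle markers. MMTV-Wnt1 tumor 2 also had the highest array median (7.23), and MMTV-Wnt/ILK tumor 2, with a score of -0.05, nearly the same median (7.23). The second tumor with muscle RNA, MMTV-Wnt1 tumor 1, scored -0.10. The part of the array median, and of these tissues and cell types, in the scores was not tested, and single tumors cannot show it.

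**Figure D2:**
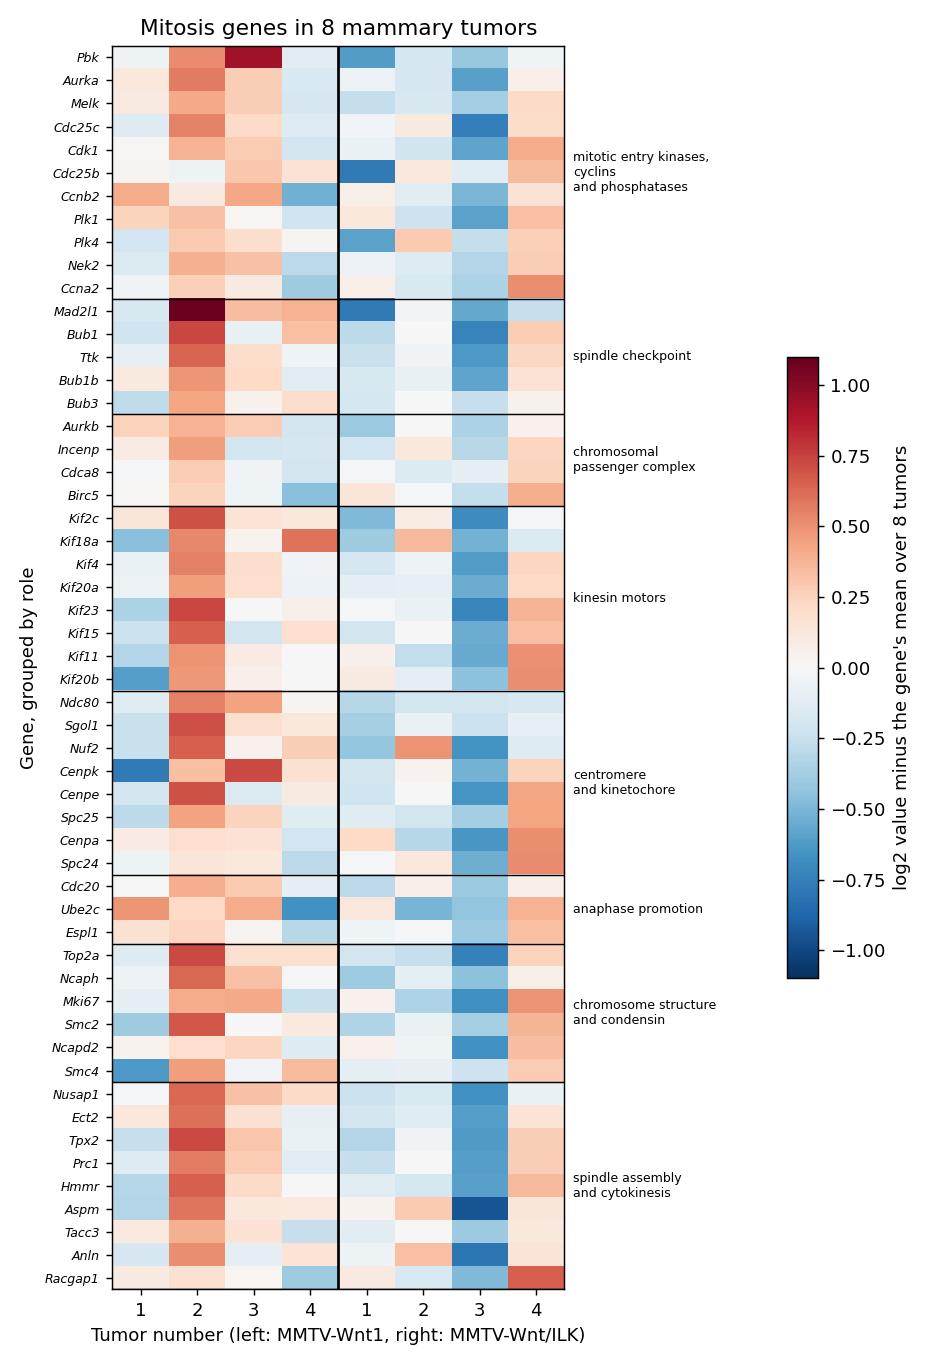
Each of the 54 measured genes (rows, grouped by role and ordered by fold change) in each of the 8 tumors (columns), as the log2 value minus the gene's mean over the tumors. MMTV-Wnt1 tumor 2 is above the gene's mean for 53 of 54 genes and MMTV-Wnt/ILK tumor 3 below it for 54 of 54. The same counts were not made over all rows.

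**Figure D3:**
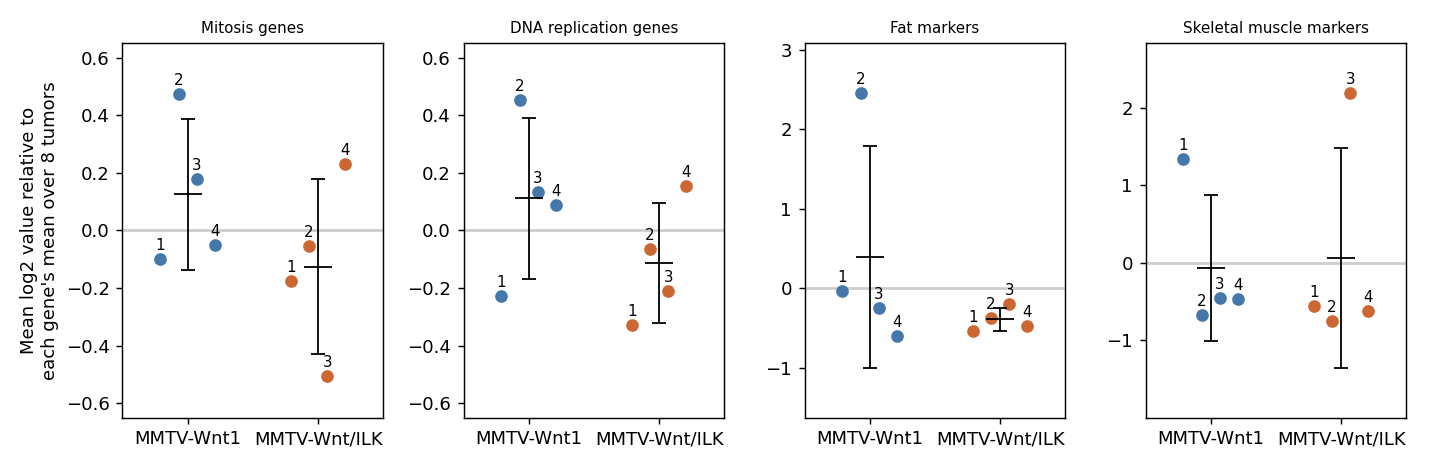
Score of the mitosis genes, DNA replication genes, fat markers and skeletal muscle markers in each tumor (points, numbered), as the mean log2 value relative to each gene's mean over 8 tumors; lines give the group mean and SD (n = 4), and the fat and muscle panels have wider axes than the others. MMTV-Wnt1 tumor 2 has the highest mitosis score (0.47) and fat score (2.46), and MMTV-Wnt/ILK tumor 3 the lowest mitosis score (-0.50) and the highest muscle score (2.19).

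The 54 genes moved together across the tumors. The median Pearson correlation between a pair of them was 0.71 over the 8 tumors, and 0.72 after each group's mean had been subtracted, against 0.20 and 0.24 over 8509 named genes of at least median brightness. All points share the same 8 arrays, and the values are given as a description. Each gene was then set against the mean of all the others. The closest were Kif4 (0.997), a chromokinesin, Kif20a, Ttk and Prc1, and 30 of the 54 correlated above 0.8. The lowest were Cdc25b (0.37), a phosphatase that activates Cdk1, Ube2c (0.47), the ubiquitin-conjugating enzyme of the anaphase-promoting complex, and Ccnb2 (0.51), a B-type cyclin. Among the 45 measured genes with a promoter entry, the median of this correlation was 0.87 in the 25 with both motifs and 0.79 in the 20 without, but split by a CHR within 50 bases of the start it was 0.87 in the 27 with it and 0.85 in the 18 without.

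MMTV-Wnt1 tumors 1 and 4 had nearly the same score but a different makeup, a contrast chosen after its values were seen. Tumor 1 was above tumor 4 for 24 of the 54 genes. Ube2c was 8.81 in tumor 1 and 7.66 in tumor 4, and Ccnb2 9.75 and 8.82. Racgap1, a subunit of the centralspindlin complex of cytokinesis (9.76 and 9.27), Espl1, Birc5, Aurkb and Plk1 were also higher in tumor 1, by 0.46 to 0.49. The opposite order was seen for the kinesin Kif18a (6.11 and 7.16), the condensin ATPase Smc4 (8.34 and 9.32) and the kinetochore protein Cenpk (5.62 and 6.57). These are 2 single tumors, and the difference has no replicate. Tumor 1 also had the lowest array median of the 8 tumors (6.89, against 7.17 in tumor 4). When limma was run with array weights, its array had the lowest weight (0.30, against 1.31 in tumor 4). The part of array quality in this contrast was not tested.

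Next, the MMTV-Wnt/ILK tumors were compared with the MMTV-Wnt1 tumors gene by gene, with limma over all 23332 rows. Of the 54 genes, 49 had a lower mean with the ILK transgene and 5 a higher one. A lower mean was found for 59.2% of all named genes and 54.7% of all rows. The median log2 fold change was -0.23 (1.17-fold lower), against -0.05 over all 14860 named genes and -0.03 over all rows. At an adjusted p under 0.05, limma called 0 of the 54 genes, as it called 0% of all rows, and the adjusted p of the genes ran from 0.905 to 0.996. At an unadjusted p under 0.05, 5 genes were lower (9.26%, against 2.21% of all rows) and 0 higher (against 2.91%). The groups did not overlap for 3 genes, each lower in MMTV-Wnt/ILK (5.56%, against 1.42% of all rows), and for 0 in the other direction (against 1.47%). Cell type markers also differed in mean between the groups: all 8 fibroblast markers were higher in MMTV-Wnt/ILK (median 0.77) and all 7 fat markers lower (median -0.73), with 0 of either at an unadjusted p under 0.05 in limma. In each case 1 MMTV-Wnt1 tumor stood far from the rest. The fibroblast score was -2.51 in tumor 3 and 0.24 to 0.46 in the others of its group, against -0.06 to 0.95 in MMTV-Wnt/ILK. The fat score was 2.46 in tumor 2 and -0.60 to -0.03 in the others of its group, against -0.53 to -0.19 in MMTV-Wnt/ILK. The part of these markers in the result was not tested. Since the 54 genes move together, they are not 54 separate observations of the groups. The p-values set the difference of the group means against the spread between these tumors, which limma moderates with that of all rows.

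**Figure D4:**
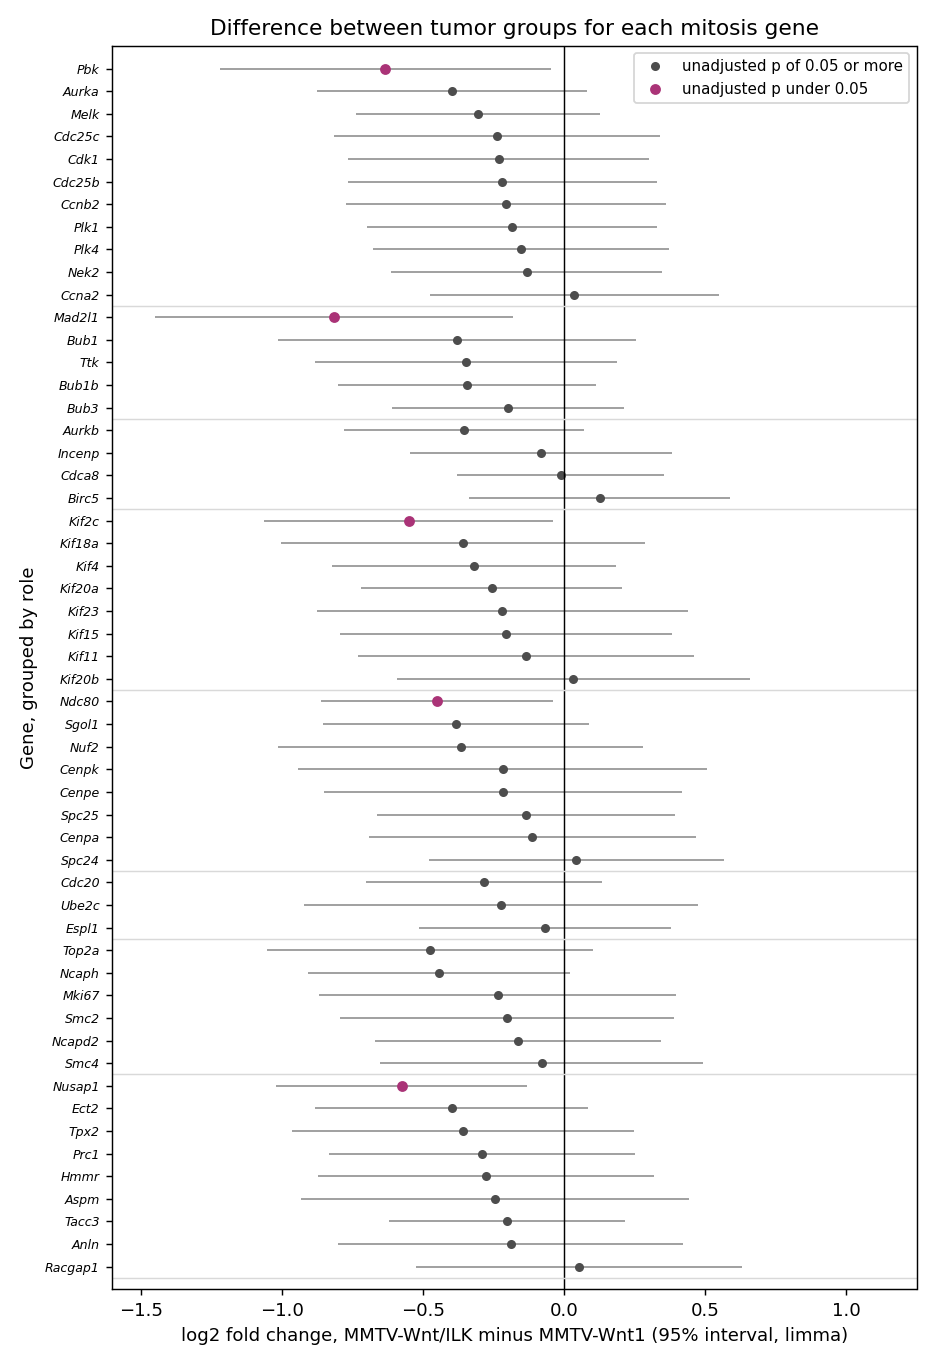
Log2 fold change (MMTV-Wnt/ILK minus MMTV-Wnt1) of each of the 54 genes with its 95% interval from limma, grouped by role. All but 5 points lie below 0, and the interval stays below 0 for Pbk, Mad2l1, Kif2c, Ndc80 and Nusap1, the 5 genes at an unadjusted p under 0.05, none of them past adjustment (adjusted p = 0.905 for each).

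Among the 11 measured genes of mitotic entry, 10 had a lower mean and 1 a higher one (median -0.22). Cdk1, the kinase that starts mitosis, was 8.63, 9.00, 8.90 and 8.41 in MMTV-Wnt1 tumors 1 to 4 and 8.55, 8.40, 8.04 and 9.03 in MMTV-Wnt/ILK tumors 1 to 4. Its highest and its lowest value were both in MMTV-Wnt/ILK tumors, and the group means differed by -0.23 (SE 0.23, limma, unadjusted p = 0.351). Plk1, the Polo-like kinase of centrosome maturation and spindle assembly, had 9.13, 9.21, 8.90 and 8.67 against 9.00, 8.66, 8.30 and 9.21. Its difference was -0.18 (SE 0.23), and its dim second row, at a mean of 5.07, went the other way (0.40, SE 0.21). Aurka, the Aurora kinase of the spindle poles, had 8.92, 9.37, 9.07 and 8.63 against 8.74, 8.62, 8.20 and 8.86, a difference of -0.40 (SE 0.21, limma, unadjusted p = 0.0940). Only 2 of its MMTV-Wnt/ILK tumors lay below the whole MMTV-Wnt1 group.

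Pbk, a kinase active in mitotic cells, showed the largest difference of these 11. It had 8.34, 8.91, 9.31 and 8.27 in MMTV-Wnt1 tumors and 7.78, 8.20, 7.98 and 8.35 in MMTV-Wnt/ILK tumors. The groups overlapped through MMTV-Wnt/ILK tumor 4, and the difference was -0.63 (SE 0.26, 1.55-fold lower, limma, unadjusted p = 0.0378, adjusted p = 0.905). Melk, a kinase of dividing and progenitor-type cells, had a difference of -0.30 (SE 0.19). Ccna2, the A-type cyclin, was the 1 gene with a higher mean (0.04, SE 0.23), at 9.71 to 10.37 against 9.76 to 10.62.

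All 5 spindle checkpoint genes had a lower mean, and their median of -0.35 was the lowest among the 8 role groups. Mad2l1, which encodes the Mad2 protein that inhibits Cdc20 at unattached kinetochores, was 9.45, 10.70, 9.96 and 10.01 in MMTV-Wnt1 tumors and 8.85, 9.59, 9.06 and 9.37 in MMTV-Wnt/ILK tumors. Of the MMTV-Wnt/ILK tumors, 3 lay below the whole MMTV-Wnt1 group and tumor 2 overlapped with MMTV-Wnt1 tumor 1. The difference was -0.81 (SE 0.28, 1.76-fold lower, limma, unadjusted p = 0.0174, adjusted p = 0.905), the largest of the 54. Ttk, the kinase Mps1 that sets off the checkpoint, had 7.54, 8.27, 7.82 and 7.58 against 7.38, 7.59, 7.00 and 7.86, a difference of -0.35 (SE 0.24). Bub1b, the checkpoint protein BubR1, had 8.97, 9.34, 9.08 and 8.74 against 8.68, 8.78, 8.28 and 9.02, a difference of -0.34 (SE 0.20). In both of these genes MMTV-Wnt/ILK tumor 4 lay well inside the MMTV-Wnt1 range. Bub1 and Bub3 had differences of -0.38 and -0.20.

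The chromosomal passenger complex had the smallest difference. Its median was -0.05, with 3 of 4 genes lower. Aurkb, its kinase, had 8.74, 8.87, 8.76 and 8.27 against 8.07, 8.48, 8.13 and 8.53, a difference of -0.35 (SE 0.19, limma, unadjusted p = 0.0919). Birc5, which encodes survivin, had 7.27, 7.50, 7.21 and 6.80 against 7.39, 7.24, 7.00 and 7.66, a difference of 0.13 (SE 0.20), the highest of the 54 genes. Incenp, the scaffold, and Cdca8, which encodes borealin, differed by -0.08 (SE 0.20) and -0.01 (SE 0.16). The groups overlapped in all 4 genes.

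Of the 8 kinesins, 7 had a lower mean (median -0.24). Kif2c, a kinesin that depolymerizes microtubules at centromeres, was 8.61, 9.18, 8.62 and 8.60 in MMTV-Wnt1 tumors and 7.99, 8.56, 7.79 and 8.47 in MMTV-Wnt/ILK tumors. The groups did not overlap, though the gap between MMTV-Wnt/ILK tumor 2 and MMTV-Wnt1 tumor 4 was small, and the difference was -0.55 (SE 0.23, 1.46-fold lower, exact permutation test, 2-sided p = 0.029, limma, unadjusted p = 0.0384). This exact p is the smallest that the 70 assignments of 8 tumors can give. Kif4, the gene closest to the score, had 7.45, 8.08, 7.72 and 7.49 against 7.34, 7.46, 6.91 and 7.76, a difference of -0.32 (SE 0.22). Kif18a, a motor that dampens chromosome movements, had 6.11, 7.10, 6.61 and 7.16 against 6.17, 6.92, 6.05 and 6.40, a difference of -0.36 (SE 0.28). Both genes overlapped between the groups. Kif11, the motor that pushes the spindle poles apart, Kif20a, Kif23 and Kif15 differed by -0.26 to -0.13, and Kif20b by 0.03.

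Of the 8 measured centromere and kinetochore genes, 7 had a lower mean (median -0.22). Ndc80, the core of the complex that binds microtubules, had 7.47, 8.16, 8.04 and 7.63 in MMTV-Wnt1 tumors and 7.28, 7.40, 7.40 and 7.42 in MMTV-Wnt/ILK tumors. The groups did not overlap, and the MMTV-Wnt/ILK tumors lay close together (SD 0.06, against 0.33). The difference was -0.45 (SE 0.18, 1.37-fold lower, exact permutation test, 2-sided p = 0.029, limma, unadjusted p = 0.0349). Its partners in the same complex are given beside it, and whether they differed from Ndc80 was not tested. Nuf2 had 6.26, 7.16, 6.55 and 6.78 against 6.08, 7.00, 5.84 and 6.36 (-0.37, SE 0.29), Spc25 differed by -0.13 and Spc24 by 0.05, and all 3 overlapped between the groups. Sgol1, now named Sgo1, encodes shugoshin, the protector of centromeric cohesion. It had 6.64, 7.59, 7.05 and 7.00 against 6.51, 6.81, 6.64 and 6.79, a difference of -0.38 (SE 0.21, limma, unadjusted p = 0.101). Cenpa, the centromeric histone, Cenpe and Cenpk differed by -0.22 to -0.11.

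The 3 genes of anaphase promotion had lower means (median -0.22). Cdc20, the activator of the anaphase-promoting complex, had 7.78, 8.19, 8.08 and 7.68 against 7.50, 7.87, 7.38 and 7.85, a difference of -0.28 (SE 0.18). Ube2c had 8.81, 8.54, 8.73 and 7.66 against 8.45, 7.81, 7.89 and 8.70, a difference of -0.22 (SE 0.31). Its highest and its lowest value were both in MMTV-Wnt1 tumors. Espl1, which encodes separase, differed by -0.07 (SE 0.20).

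All 6 measured genes of chromosome structure and condensin had a lower mean (median -0.22). Top2a, the topoisomerase that untangles sister chromatids, was 9.66, 10.53, 9.99 and 9.99 in MMTV-Wnt1 tumors and 9.61, 9.55, 9.06 and 10.06 in MMTV-Wnt/ILK tumors. It overlapped between the groups and differed by -0.47 (SE 0.25, limma, unadjusted p = 0.0969). Mki67 was 9.18, 9.70, 9.70 and 9.04 in MMTV-Wnt1 tumors and 9.33, 8.95, 8.61 and 9.78 in MMTV-Wnt/ILK tumors. Its highest and its lowest value were both in MMTV-Wnt/ILK tumors, and the difference of -0.23 had a 95% interval of -0.87 to 0.40, so that a higher or a lower mean was possible. Ncaph, a condensin subunit, had 8.18, 8.86, 8.56 and 8.22 against 7.84, 8.13, 7.78 and 8.29, a difference of -0.44 (SE 0.20, limma, unadjusted p = 0.0587). The other condensin genes, Ncapd2, Smc2 and Smc4, differed by -0.20 to -0.08.

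Of the 9 genes of spindle assembly and cytokinesis, 8 had a lower mean (median -0.27). Nusap1, which binds and bundles spindle microtubules, was 7.56, 8.21, 7.90 and 7.79 in MMTV-Wnt1 tumors and 7.34, 7.41, 6.91 and 7.51 in MMTV-Wnt/ILK tumors. The groups did not overlap, and the difference was -0.57 (SE 0.20, 1.49-fold lower, exact permutation test, 2-sided p = 0.029, limma, unadjusted p = 0.0171, adjusted p = 0.905). Its difference kept an unadjusted p under 0.05 whichever single tumor was left out (8 of 8, limma). Ect2, the exchange factor that turns on RhoA for cytokinesis, had 9.00, 9.49, 9.05 and 8.79 against 8.68, 8.75, 8.27 and 9.04, a difference of -0.40 (SE 0.21, limma, unadjusted p = 0.0955). Tpx2, the activator of Aurora A on the spindle, had 8.13, 9.11, 8.69 and 8.31 against 8.06, 8.34, 7.75 and 8.65, a difference of -0.36 (SE 0.27). In Ect2 the groups overlapped through MMTV-Wnt/ILK tumor 4, and in Tpx2 through tumors 2 and 4. Prc1, Aspm, Hmmr, Tacc3 and Anln differed by -0.29 to -0.19 and Racgap1 by 0.05.

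Each tumor was then left out in turn. The score difference stayed below 0 in all 8 cases, from -0.37 without MMTV-Wnt/ILK tumor 4 to -0.12 without MMTV-Wnt/ILK tumor 3. Without MMTV-Wnt1 tumor 2 it was -0.13. In the other 5 cases it lay between -0.33 and -0.23. The count of genes with a lower mean ran from 41 (without MMTV-Wnt/ILK tumor 3) to 53 (without MMTV-Wnt/ILK tumor 4). The matching share of all rows was not taken for each case. At an unadjusted p under 0.05 in limma, 5 genes and 515 of all 23332 rows were lower with all tumors. Without MMTV-Wnt1 tumors 1 to 4, each in turn, 7, 2, 3 and 8 genes were lower, against 1324, 578, 464 and 513 rows. Without MMTV-Wnt/ILK tumors 1 to 4, each in turn, 1, 4, 2 and 7 genes were lower, against 341, 782, 552 and 311 rows. Of the 8 cases, Nusap1 was at that p in 8, Mad2l1 in 7, Kif2c in 5, Pbk in 3 and Ndc80 in 2. The tumors richest in fat RNA and in muscle RNA, MMTV-Wnt1 tumor 2 and MMTV-Wnt/ILK tumor 3, which are also the highest and the lowest in the score, were left out together as a check chosen after the data were seen. The score difference was then -0.0080, with 28 of 54 genes lower and 0 at an unadjusted p under 0.05 in limma. Over all rows, 586 were lower at that p. A smaller difference follows from that choice, since the pair are the extremes of the score, and the value only shows how much of the difference these 2 tumors carried.

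**Figure D5:**
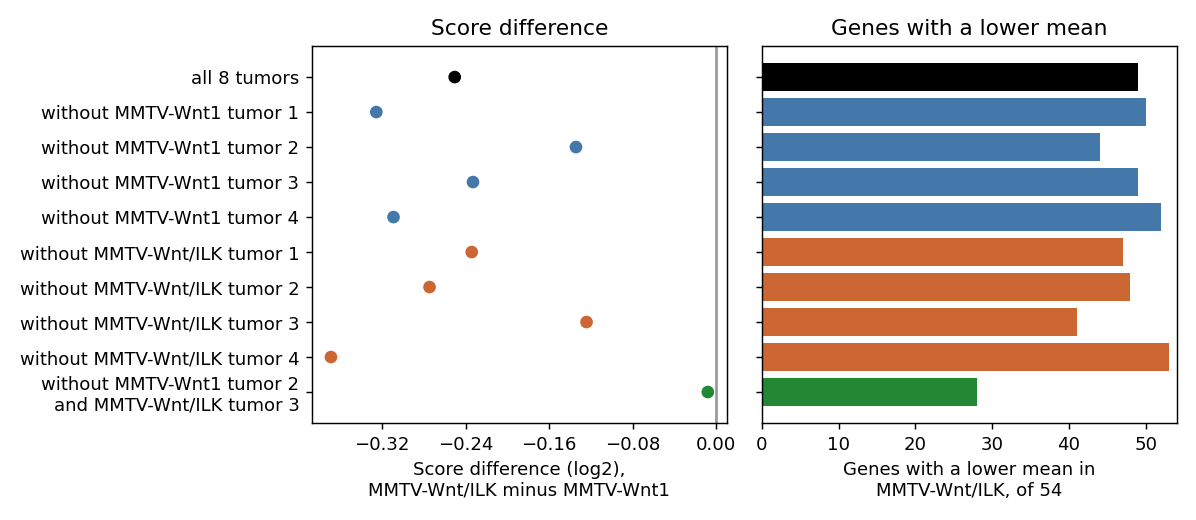
Difference in the score of the 54 genes (left, log2) and number of genes whose mean was lower in MMTV-Wnt/ILK (right), with all 8 tumors, without each tumor, and without the pair of tumors at the ends of the score. The difference runs from -0.37 to -0.12 with 1 tumor left out and is -0.0080 without the pair.

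A second list of 72 mitosis genes was examined beside the first, and 58 of them were measured. Of these, 48 had a lower mean and 10 a higher one (median -0.17), 2 were lower at an unadjusted p under 0.05 in limma (3.45%, against 2.21% of all rows) and 0 higher, and 0 passed adjustment. This share was close to that of all rows. Zwint, the kinetochore protein that anchors the RZZ complex, had 8.80, 9.26, 9.38 and 9.41 against 8.35, 9.05, 8.75 and 8.16, a difference of -0.63 (SE 0.23). Fbxo5, which encodes Emi1, the inhibitor of the anaphase-promoting complex, had 8.02, 8.68, 8.50 and 8.18 against 7.44, 8.18, 7.35 and 7.98, a difference of -0.61 (SE 0.24). Cdca5, which encodes sororin, differed by -0.44 (SE 0.20). In each of these, 3 of the 4 MMTV-Wnt/ILK tumors lay below the whole MMTV-Wnt1 group. Of 29 measured DNA replication genes, 25 had a lower mean (median -0.19) and 4 were lower at an unadjusted p under 0.05 in limma, a share of 13.8% against 9.26% of the 54 mitosis genes and 2.21% of all rows. The smallest p were those of Gins1 (-0.91, SE 0.24), Fen1 (-0.72, SE 0.19) and Rrm1 (-0.43, SE 0.17), and 0 passed adjustment. Their score was highest in MMTV-Wnt1 tumor 2 (0.45), as for the mitosis genes, but lowest in MMTV-Wnt/ILK tumor 1 (-0.33) in place of tumor 3 (-0.21).

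Finally, genes outside the cell cycle lists were ranked by their Pearson correlation with the mitosis score over the 8 tumors, among 8389 genes of at least median brightness. The highest were Brca1 (0.96), a DNA repair gene, Parpbp (0.95), the acetyltransferase gene Kat2a (0.92), Wdhd1 (0.91), a replication factor, and Gen1 (0.91), a nuclease that resolves recombination junctions. Brca1 was 7.01, 7.72, 7.40 and 7.25 in MMTV-Wnt1 tumors and 7.01, 7.26, 6.88 and 7.43 in MMTV-Wnt/ILK tumors, with its extremes in the same tumors as the score. The lowest were Sbno2 (-0.93), Fstl3 (-0.90), the receptor tyrosine kinase gene Erbb2 (-0.89), Ccdc120 (-0.89) and Ets2 (-0.88). Erbb2 was 9.47, 9.15, 9.24 and 9.69 in MMTV-Wnt1 tumors and 9.65, 9.45, 9.73 and 9.32 in MMTV-Wnt/ILK tumors, lowest where the score was highest. These genes were picked as the extremes of a long ranking over 8 tumors that share their arrays, and the correlations are a description.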

How the data were processed

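Expression was measured in 8 tumors, 1 array each. Per the labels and the study's methods, the deposited log2 values were made by the authors with RMA in ArrayAssist and quantile normalization between chips; the log base is not stated there and was inferred from how the values range. Symbols came from the platform annotation: 14996 of 23332 rows carry exactly 1 gene, 1019 several and 7317 none. For 135 genes with several rows, the row of highest mean stands for the gene. Groups and tumor numbers came from the sample titles.

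MMTV-Wnt/ILK was compared with MMTV-Wnt1 with limma 3.58.1 in R 4.3.3 (lmFit, eBayes, no covariate), unfiltered, with p-values adjusted over all rows by Benjamini-Hochberg, and single genes with an exact 2-sided permutation test. The fit was tested on simulated data. Values were given in full for up to 3 genes per role group with the smallest p, and always for Mki67, Top2a, Cdk1, Aurka and Plk1; up to 3 genes were named in each other list. Alternatives covered the scaling, the row per gene, dim rows, the variance model, array weights, a replicate block and each tumor left out. The members and all lists were chosen with earlier results of these data known. The number of arrays limits the precision. Motifs were searched with Python 3.11.15. Exon-level values were not used here.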

Additional observations from a re-analysis of the deposited data

Results flagged for a closer look

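Among 90 groups of 4 tumors examined, 6 held a tumor that stood apart from the other 3, where about 4.5 would do so by chance (1 in 20). Kif2c in MMTV-Wnt1 tumor 2 was at 9.18, and the next highest tumor of the group at 8.62. The score of the anaphase genes in MMTV-Wnt1 tumor 4 was -0.36, below the next at 0.22. The skeletal muscle score was 1.34 in MMTV-Wnt1 tumor 1 and 2.19 in MMTV-Wnt/ILK tumor 3. The fibroblast score was -2.51 in MMTV-Wnt1 tumor 3, and the endothelial score 0.85 in MMTV-Wnt1 tumor 2.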

How the results depend on the processing

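With 4 tumors a group, the spread between tumors limits every value. The count of genes lower at an unadjusted p under 0.05 (5 in limma) was 7 after median-centring, a repeated quantile normalization or array weights, 3 when each row was tested alone with equal variances, and 1 to 8 with a tumor left out. The count over all 23332 rows moved too, from 515 in the main fit. It was 665 after median-centring, 581 after the repeated quantile normalization, 1667 with array weights, 539 with equal variances and 311 to 1324 with a tumor left out. With the tumor number as a replicate block, 5 genes and 740 rows were lower at that p. Deviations of same-numbered tumors correlated at 0.11, 0.13, 0.15 and -0.0041, so the numbers were not taken to pair the tumors. No gene of the 54 passed adjustment under any alternative; over all rows 13 did without MMTV-Wnt/ILK tumor 2 and 0 otherwise. Leaving out MMTV-Wnt1 tumor 2 and MMTV-Wnt/ILK tumor 3 together, chosen after seeing the data and by construction making the difference smaller, gave 0 genes at an unadjusted p under 0.05 and 28 with a lower mean. It also turned the log2 fold change of Cdk1 to 0.014, Mki67 to 0.050, Plk1 to 0.057, Espl1 to 0.12 and Incenp to 0.15. Array weights turned Espl1 to 0.034 and Ube2c to 0.060, and the mean of both rows turned Plk1 to 0.11. With a tumor left out, Birc5 ran from -0.0037 to 0.24, Espl1 from -0.19 to 0.055 and Incenp from -0.17 to 0.058. The cause of these moves was not tested.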
